A study of Gallus gallus with 12 samples.

Results

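Cytosolic ribosomal protein genes were followed through the gut wall of chick embryos at embryonic day 14. The members were all genes of the deposited count table whose symbol begins with RPL or RPS and a digit, or with RPLP, or is RPSA. The pseudogene symbol RPSAP58 and the RPS6 kinase genes were left out. RPSAP58 held 13256 counts over the mesenchyme samples, more than any member (10981 for the highest, RPS3A). The sums and subunit shares below are without it. The rule gave 70 of 17138 genes, 43 with large-subunit symbols and 27 with small-subunit symbols. One of the latter, RPS19BP1, encodes a protein that binds RPS19 and is no ribosomal protein itself. RPSA was not a gene name in the table.

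The cytosolic ribosome is built from ribosomal RNA and a single copy of nearly every ribosomal protein. The proteins of the small subunit surround the site where messenger RNA is decoded, and those of the large subunit surround the site where peptide bonds form. Most ribosomal protein messages begin with a terminal oligopyrimidine (TOP) tract, through which their translation is controlled by growth signals, and growing embryonic tissues use much of their messenger RNA on them.

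The data came from Light-seq, in which RNA is copied into cDNA on a tissue section and hand-drawn regions are barcoded with light before sequencing. Each sample gave 3 regions, namely subepithelial mesenchyme, longitudinal muscle of the inner layer (longitudinal muscle) and the inner side of the circumferential muscle. There were 3 groups of 4 samples: midgut with RCAS-mGFP (midgut), midgut with RCAS-Hoxd13 (Hoxd13 midgut) and hindgut with RCAS-mGFP (hindgut). All eggs were kept at 38 °C, and all groups carried an RCAS retrovirus, put into midgut-level splanchnic lateral plate mesoderm by electroporation at Hamburger-Hamilton stage 17, with a fluorescent protein (mGFP) as the control cargo. The study's stated question was which genes the mesenchyme of the Hoxd13 midgut and of the hindgut share in their difference from the midgut. The labels give neither the sex of the embryos nor whether replicates were separate embryos, so p-values measure the spread between these samples, which may be technical.

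Mesenchyme regions held 210803 to 903222 counts, longitudinal muscle regions 11233 to 49535 and circumferential muscle regions 19920 to 112252. HOXD13 had 155 to 238 counts in the Hoxd13 midgut mesenchyme, 0 in every midgut sample and 1 to 8 in the hindgut. In each of the 3 layers, 9 of 9 fibroblast and mesenchyme markers (COL1A1 and PDGFRA among them) had counts in every group. Their detection therefore does not set the mesenchyme apart. In the midgut they summed to 3.02 to 3.30% of counts without mitochondrially encoded genes in the longitudinal muscle and 2.54 to 3.00% in the mesenchyme. In the other groups the direction varied between samples. The summed level of 10 smooth muscle markers (ACTA2, MYH11 and others) was higher in the circumferential muscle (1.32 to 3.16% of the same counts, 12 samples) than in the mesenchyme (0.562 to 1.75%). In the longitudinal muscle the sum was 0.868 to 1.44%. It lay above that of the sample's own mesenchyme in every midgut and Hoxd13 midgut sample and in hindgut replicate 1. In hindgut replicates 2 to 4 it lay below (0.888, 0.958 and 1.19% against 1.31, 1.31 and 1.75%), so these markers do not set that region apart as muscle in those samples. Hindgut replicate 1 was the deepest library and stood apart from the other hindgut samples in several measures below. Comparisons that it moves are given with and without it.

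Ribosomal protein transcripts made up 2.16 to 3.88% of the mesenchyme's counts once the 13 mitochondrially encoded genes were set aside. The share was 3.35, 3.40, 3.57 and 3.88% in midgut replicates 1 to 4. It was 2.87, 2.69, 2.83 and 2.93% in the Hoxd13 midgut. In the hindgut it was 3.64, 2.40, 2.16 and 2.67%. Every Hoxd13 midgut sample and hindgut replicates 2 to 4 lay below every midgut sample, and hindgut replicate 1 lay among the midgut samples. The log2 ratio of the mean shares was -0.33 for the Hoxd13 midgut and -0.39 for the hindgut against the midgut, and -0.56 for the hindgut without replicate 1. The ratio for the Hoxd13 midgut was -0.42 as a share of all counts and -0.23 on the scale of the gene tests, where the hindgut stood at -0.23. The share of mitochondrially encoded genes in all counts separated the groups, at 35.9 to 39.0% in the midgut, 40.7 to 42.7% in the Hoxd13 midgut and 27.5 to 35.5% in the hindgut. Its part in the ribosomal protein differences was not tested beyond these denominators. In bulk regions such as these, fewer cells of a type and less RNA per cell cannot be told apart.

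Both muscle layers held a smaller share of ribosomal protein counts than the mesenchyme of the same sample, in 12 of 12 samples each. The longitudinal muscle lay 0.500 ± 0.179 percentage points (SD, n = 12) and the circumferential muscle 0.675 ± 0.179 points below the mesenchyme. The longitudinal muscle exceeded the circumferential muscle in 11 of 12 samples, and in 9 of 12 when mitochondrially encoded genes were kept in the denominator.

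**Figure D1:**
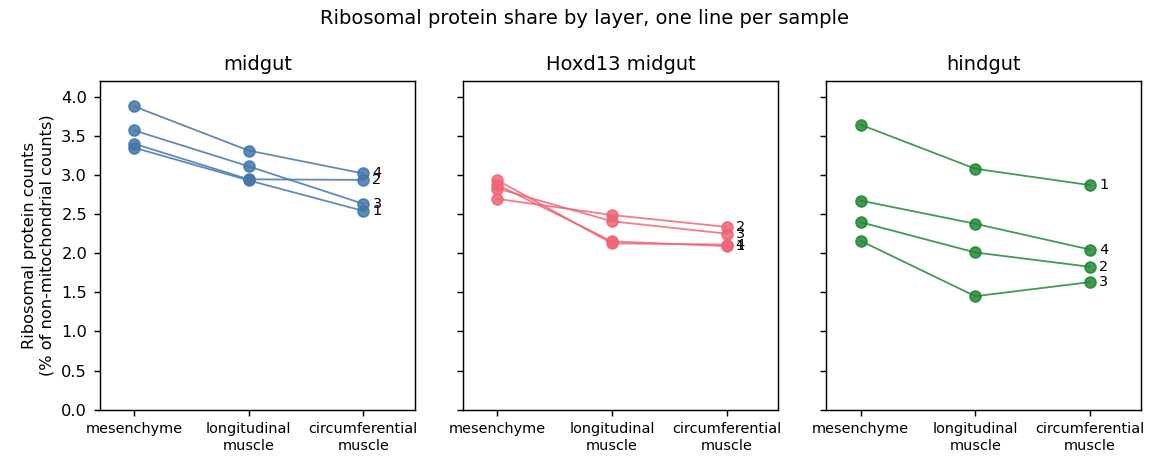
Share of ribosomal protein counts in the counts without mitochondrially encoded genes (percent, vertical axis) in the 3 layers (horizontal axis), with 1 line for each sample, its replicate number at the right and 1 panel for each group. Lines fall from mesenchyme to muscle in all 12 samples, and hindgut replicate 1 runs above the other hindgut samples.

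The Hoxd13 midgut was compared with the midgut in the mesenchyme first among single genes. Of 64 members that passed the low-count filter, 6 were lower in the Hoxd13 midgut and 0 were higher (quasi-likelihood test of edgeR, Benjamini-Hochberg adjusted over 4176 genes, threshold 0.05). Among all genes tested, 2.66% were called in either direction, 1.34% lower and 1.32% higher. The 6 were RPL17, RPS6, RPS10, RPS29, RPL8 and RPS3A, and RPL17 and RPS6 lie on the Z chromosome. The median change of the 64 members was -0.04 on the log2 scale, beside 0.01 for all genes tested, with 35 members below 0 and 29 above. On full column totals without scaling factors the median of all genes moved to -0.19 and that of the members to -0.23.

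Of the 70 members, 4 were Z-linked by the reference table (RPL17, RPL37, RPS6 and RPS23), 64 lay on other chromosomes, and RPL36AL and RPS19 had no chromosome there. RPL17, a large-subunit protein near the exit of the peptide tunnel, had the largest fall of any member. Its level was 767, 759, 798 and 821 CPM (counts scaled to equal library sizes, those of the fit) in midgut replicates 1 to 4. In the Hoxd13 midgut it was 274, 243, 272 and 315 CPM. In the hindgut it was 714, 244.0, 290.2 and 354 CPM. The 4 Hoxd13 midgut samples and hindgut replicates 2 to 4 were low, and hindgut replicate 1 lay just under the midgut samples, so neither group overlapped with the midgut. The mean was 786 ± 28.7 CPM in the midgut and 276 ± 29.4 CPM with Hoxd13 (SD, n = 4 each). RPL17 thus fell by 1.51 on the log2 scale (SE 0.22, adjusted p = 0.000272), to 35.2% of the midgut level.

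RPS6, the small-subunit protein that is phosphorylated downstream of growth signalling, stood at 527, 547, 541 and 614 CPM in the midgut. The Hoxd13 midgut held 290.2, 259.7, 312.0 and 244 CPM. The hindgut held 527, 272, 226 and 228 CPM. Again the Hoxd13 midgut samples were low without overlap, and hindgut replicate 1 alone of its group lay at the midgut level. With Hoxd13, RPS6 fell by 1.01 (log2, SE 0.20, adjusted p = 0.00756), to 49.5% of the midgut level. The calls of RPL17 and RPS6 held in each of 12 fits that left out 1 sample.

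RPS23, a small-subunit protein of the decoding centre, had 72.1, 88.8, 76.3 and 104 CPM in the midgut and 25.5, 55.2, 36.3 and 27.1 CPM in the Hoxd13 midgut. These groups did not overlap, but the change of -1.25 (log2, SE 0.38) missed the threshold (adjusted p = 0.0778). RPS23 was over the low-count filter (28.0 CPM of the full totals) in all midgut samples and in 2 samples of each other group. The hindgut had 80.5, 11.1, 14.8 and 31.0 CPM, high in replicate 1 only. RPL37, a zinc-binding large-subunit protein, differed from the other Z-linked members. Its levels overlapped between all groups. The midgut had 123 to 208 CPM, the hindgut 72.1 to 157 CPM, and the Hoxd13 midgut 86.1 to 130.3 CPM. The RPL37 change with Hoxd13 was -0.33 (log2, SE 0.22, adjusted p = 0.448).

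**Figure D2:**
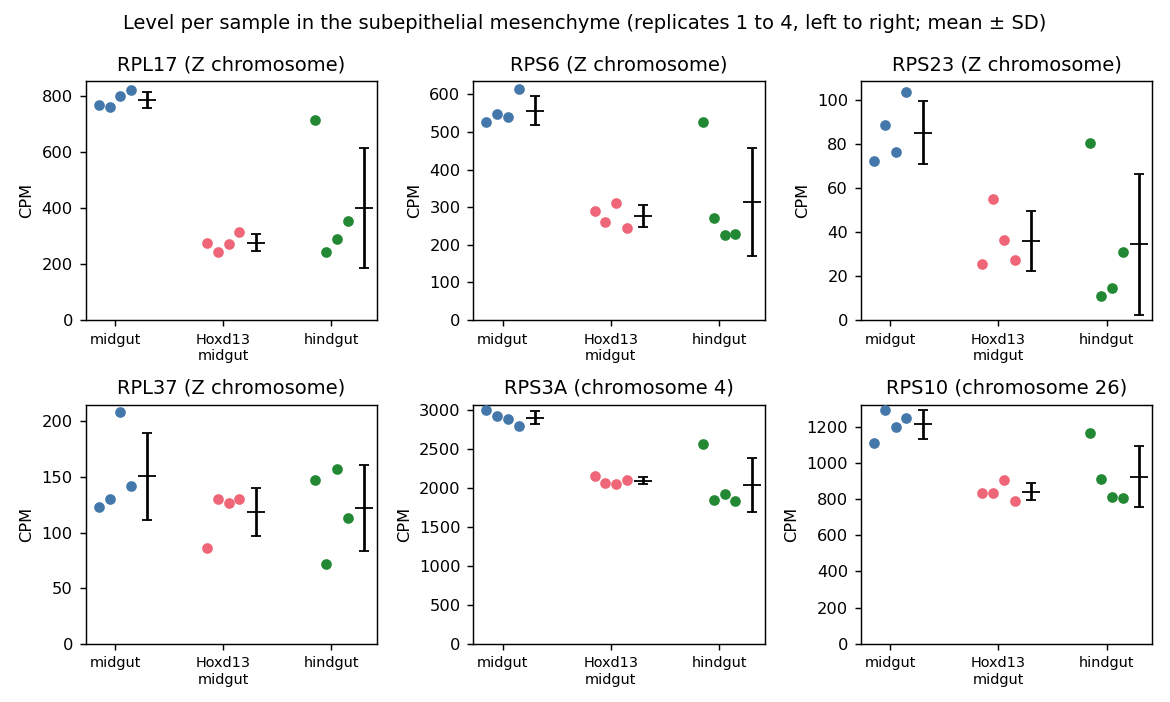
Level (CPM on the library sizes of the fit, vertical axis from 0) of 6 ribosomal protein genes in each mesenchyme sample, with replicates 1 to 4 from left to right in each group and the mean ± SD (n = 4) beside the points. RPL17, RPS6 and RPS23 are low in the Hoxd13 midgut and in hindgut replicates 2 to 4, RPL37 overlaps between groups, and RPS3A and RPS10 show smaller differences.

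Sex-linked genes outside the family moved with the same samples. In birds, females carry a W and a Z chromosome and males a pair of Z chromosomes. The 4 Z-linked members made up 7.09, 6.87, 7.02 and 7.19% of the ribosomal protein counts of the midgut mesenchyme. Their share was 3.50, 3.63, 3.90 and 3.72% in the Hoxd13 midgut. In the hindgut it was 6.73, 3.32, 3.74 and 4.04%. Replicate 1 was thus near the midgut samples, and all others were close to the Hoxd13 midgut.

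The 516 other Z-linked genes summed to 1.98 to 2.14% of counts without mitochondrially encoded genes in the midgut, 1.49 to 1.62% in the Hoxd13 midgut, 2.13% in hindgut replicate 1 and 1.38 to 1.66% in hindgut replicates 2 to 4. Of these genes, 123 were tested, with a median change of -0.37 with Hoxd13 and -0.21 in the hindgut (log2). The 3 W-linked genes matched by symbol (HINTW, HNRNPKL and SMAD7B) had 2.34, 3.25, 0 and 0 CPM of all counts in the midgut, where the counts of 0 allow up to 9.88 and 8.69 CPM in replicates 3 and 4 (counting error only). In the hindgut they had 37.6, 104, 126 and 156 CPM. The 4 Hoxd13 midgut samples had 122, 130, 150 and 162 CPM. All Hoxd13 midgut and hindgut samples were above all midgut samples, and hindgut replicate 1 was the lowest of them. The groups therefore differed in sex-linked transcripts as well as in tissue and construct, and for the Z-linked members these differences cannot be told apart. Between the Hoxd13 midgut and the midgut the same holds for members on other chromosomes, because every sample of one group differed from every sample of the other in these transcripts. It also holds between the hindgut without replicate 1 and the midgut. With replicate 1, every hindgut sample was still above every midgut sample in the W-linked transcripts, while the other Z-linked genes overlapped.

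**Figure D3:**
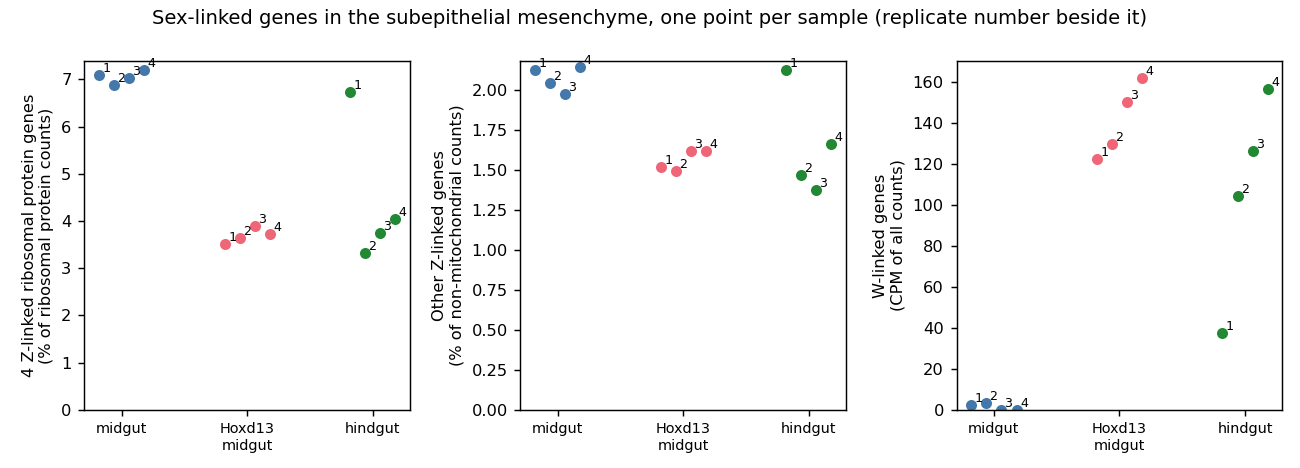
Sex-linked transcripts per mesenchyme sample, with the replicate number beside each point: the 4 Z-linked ribosomal protein genes as a percentage of ribosomal protein counts (left), other Z-linked genes as a percentage of counts without mitochondrially encoded genes (middle) and W-linked genes in CPM of all counts (right). The midgut samples and hindgut replicate 1 are high in both Z-linked measures, and the W-linked level is near 0 in the midgut only.

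Outside the Z chromosome, 60 members were tested, with a median of -0.01 (log2), 4 lower with Hoxd13 and 0 higher. RPS3A, a small-subunit protein that contacts initiation factors, had the most counts of any member (10981 over the mesenchyme samples). It stood at 3008, 2925, 2887 and 2803 CPM in the midgut and at 2159, 2071, 2053 and 2109 CPM in the Hoxd13 midgut. In the hindgut it had 2564, 1847, 1923 and 1841 CPM. All samples of both groups lay below all midgut samples, and hindgut replicate 1 was the nearest to them. RPS3A fell by 0.47 with Hoxd13 (log2, SE 0.13, adjusted p = 0.0495), to 72.2% of the midgut level.

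RPS10, a small-subunit protein near the entry of the messenger RNA, had 1111, 1295, 1201 and 1249 CPM in the midgut. The Hoxd13 midgut had 836, 834, 903 and 790.0 CPM. The 4 samples were all lower than every midgut sample, and RPS10 fell by 0.53 (log2, SE 0.13, adjusted p = 0.0310). RPS29, a small zinc-binding protein of the small subunit, had 154, 185, 229 and 259 CPM in the midgut and 124, 117, 163 and 117 CPM in the Hoxd13 midgut. Replicate 3 of the Hoxd13 midgut overlapped with the midgut, and RPS29 fell by 0.67 (log2, SE 0.18, adjusted p = 0.0444).

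RPL8, a large-subunit protein close to the peptidyl transferase centre, had 1079.8, 1083, 1256 and 1295 CPM in the midgut and 698, 854, 802 and 890.5 CPM in the Hoxd13 midgut. These groups did not overlap, and RPL8 fell by 0.54 (log2, SE 0.15, adjusted p = 0.0491). The calls outside Z were less stable than those of RPL17 and RPS6. In 12 fits that each left out 1 sample, RPS29 passed in 5, RPS10 in 4, RPL8 in 3 and RPS3A in 3. None of these 4 passed without Hoxd13 midgut replicate 1, 2 or 4 or without midgut replicate 2, 3 or 4. Only RPS29 passed without Hoxd13 midgut replicate 3 or midgut replicate 1, and only RPS10 without hindgut replicate 2. Without hindgut replicate 1 all 4 passed, among 10 members called, beside 7.52% of 4214 genes. A fit of only these groups called 12 members, 11 lower and RPL27 higher, beside 10.1% of 3602 genes.

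Complete separation of the samples was seen for more members than the test called. In 12 of 64 members (18.8%) all 4 Hoxd13 midgut samples lay below all midgut samples, beside 6.90% of all genes tested. The 12 include the Z-linked RPL17, RPS6 and RPS23, and the genes tested were not matched to the members by level. In the other direction 3 members (RPL27, RPS3 and RPL9) were separated, 4.69% of the members beside 6.59% of all genes. RPL27, a large-subunit protein, had 512, 680.0, 569 and 494 CPM in the midgut and 749, 759.5, 693 and 689.6 CPM in the Hoxd13 midgut. Its change was 0.36 (log2, SE 0.13, adjusted p = 0.141).

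Members were ordered by mean CPM over all mesenchyme samples, and 5 of the 6 called with Hoxd13 were among the 22 most counted. The 22 most counted members (315 to 2349 CPM) had a median change of -0.18 with Hoxd13, the 21 below them -0.11 and the 21 least counted (29.0 to 116 CPM) 0.14 (log2). In the hindgut the medians were -0.17, -0.10 and -0.01. Large-subunit members had 57.3 to 58.4% of the ribosomal protein counts in the midgut, 59.1 to 59.9% in the Hoxd13 midgut and 58.6 to 59.9% in the hindgut. Without RPS3A in the sum the ranges were 66.0 to 66.9%, 66.2 to 67.2% and 66.4 to 66.9%, which overlap.

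The hindgut was set against the same midgut samples, so both comparisons share their controls. In the mesenchyme, 2 of 64 members were lower in the hindgut and 0 higher, beside 1.48% of all genes called, 0.168% lower and 1.32% higher. They were RPL17, which fell by 0.89 (log2, SE 0.21, adjusted p = 0.0328), and RPS3A, which fell by 0.50 (log2, SE 0.13, adjusted p = 0.0482). RPL17 averaged 401 ± 214 CPM and RPS3A 2043 ± 349 CPM in the hindgut (SD, n = 4), a spread set by replicate 1. RPS6 was at -0.76 (adjusted p = 0.0534), RPS23 at -0.83 (adjusted p = 0.240) and RPL37 at -0.24 (adjusted p = 0.722). The median of the members was -0.12 (log2), beside 0.00 for all genes, with 43 of 64 below 0. Complete separation from the midgut was seen for 3 members in the lower direction (RPL17, RPS3A and RPS20), 4.69% beside 1.05% of all genes tested.

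Hindgut replicate 1 decided much of this comparison. Without it, 14 members were lower and 1 was higher, among 825 of 4214 genes called (19.6%). RPL17 was then at -1.37, RPS6 at -1.23, RPS23 at -1.91, RPS3A at -0.65 and RPL37 at -0.38 (log2), of which only RPL37 missed the threshold (adjusted p = 0.235). In the fit of all samples, RPS23 was over the low-count filter in 4 midgut samples but in 2 hindgut samples, replicate 1 among them. A lower RPS23 value without replicate 1 was thus partly fixed, and its call is no support. The other members called lower were RPL4, RPL6, RPL7, RPL8, RPL11 and RPL13 of the large subunit and RPS10, RPS12, RPS20 and RPS24 of the small subunit. No member was called when any midgut sample or hindgut replicate 2, 3 or 4 was left out, and RPL17 alone was called when any Hoxd13 midgut sample was left out. A fit of only these groups called 0 members among 2 of 3537 genes. At an unadjusted p under 0.05, 12 members were lower and 0 higher in the fit of all groups, beside 13.9% of all genes.

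**Figure D4:**
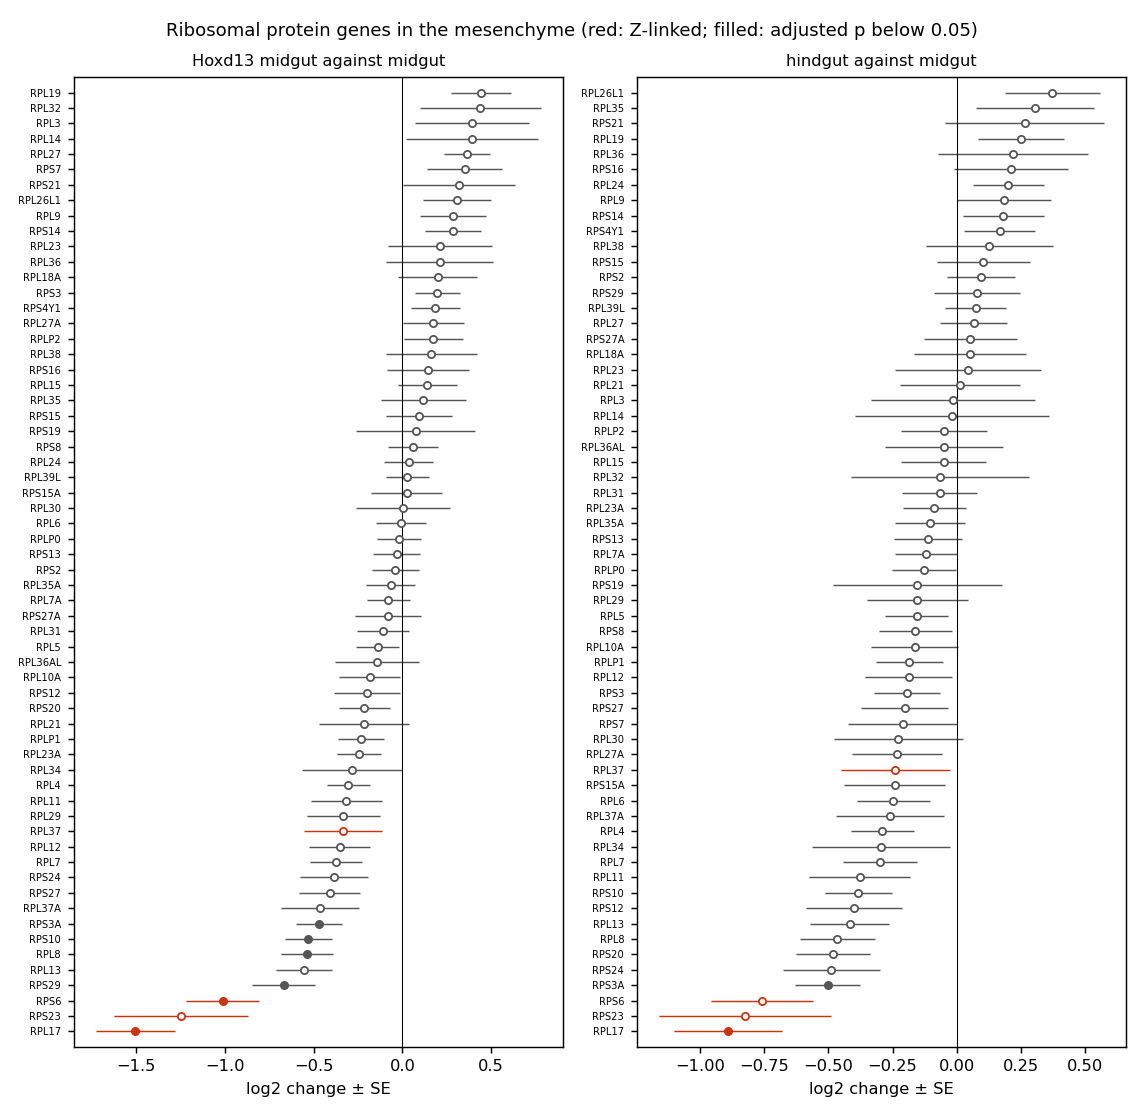
Log2 change ± SE of 62 of the 64 ribosomal protein genes tested in the mesenchyme, Hoxd13 midgut against midgut (left) and hindgut against midgut (right), each panel ordered by its own values with its own axis and both sharing the midgut samples. The Z-linked RPL17, RPS23 and RPS6 (red) lie lowest in both panels, and filled points passed the adjusted threshold of 0.05.

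Markers of other cell types moved between these groups too. Of 17 epithelial markers listed, 12 were in the table. All 12 had counts in the midgut and hindgut mesenchyme, and FABP1 alone was at 0 in the Hoxd13 midgut. Their summed share was 0.378 to 0.530% in the midgut, 0.374 to 0.427% in the Hoxd13 midgut, 0.462% in hindgut replicate 1 and 0.130 to 0.159% in hindgut replicates 2 to 4. The 10 smooth muscle markers, all with counts, summed to 0.562 to 0.920%, 0.771 to 0.897% and 0.815 to 1.75% in the same order of groups, where 0.815% was hindgut replicate 1. The 9 fibroblast and mesenchyme markers summed to 2.54 to 3.00% in the midgut and were lower in every Hoxd13 midgut sample (1.97 to 2.54%), with the nearest samples almost equal, while the hindgut had 2.59 to 3.10%. Of 6 erythroid markers listed, 3 were in the table, with HBZ at 0 in the midgut and hindgut, and their sum was 0.0283 to 0.0520% in the midgut, 0.0198 to 0.0269% in the Hoxd13 midgut and 0.0583 to 0.113% in the hindgut, without overlap. Of 4 mesothelial markers listed, 3 were in the table, with MSLN at 0 in the midgut and Hoxd13 midgut. They summed to 0.157 to 0.235% in the midgut, 0.161 to 0.214% in the Hoxd13 midgut, 0.201% in hindgut replicate 1 and 0.0640 to 0.0940% in hindgut replicates 2 to 4. This sum rested on 2 genes in the midgut and Hoxd13 midgut. In the longitudinal muscle only 1 had counts, so the sum need not follow the mesothelium. The part of all these markers in the ribosomal protein differences was not tested.

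The hindgut and the Hoxd13 midgut differed in 1 of 64 members, beside 3.78% of all genes called and 2.25% called higher. RPS29 was 0.75 higher in the hindgut (log2, SE 0.18, adjusted p = 0.0215), where its 4 samples held 226, 211, 207 and 221 CPM, above all Hoxd13 midgut samples. The call was lost without Hoxd13 midgut replicate 1, 2 or 4. Without hindgut replicate 1, 4 further members (RPL6, RPS3, RPS7 and RPS20) were lower in the hindgut, beside 14.9% of 4214 genes called in that fit. The median of the members was -0.01 (log2), beside 0.01 for all genes.

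Other gene lists were compared in the same way. The first held 18 gene symbols listed as carrying a TOP tract, most but not all of them of translation genes. RACK1 and GNB2L1 in it are symbols of the same gene. Of these, 16 were tested in the mesenchyme, and with Hoxd13 0 were lower, 1 was higher and 12 were below 0, with a median of -0.18 (log2). The one called was NAP1L1, a nucleosome assembly factor, which rose by 0.58 (SE 0.15, adjusted p = 0.0456). In the hindgut 13 of 16 were below 0 (median -0.09), and NACA, a ribosome-associated chaperone subunit, rose by 0.95 (log2, SE 0.22, adjusted p = 0.0272). The summed level of this list was 12647 to 13495 CPM in the midgut mesenchyme. It was 10709 to 10927 CPM in the Hoxd13 midgut and 10972 to 11848 CPM in the hindgut, both without overlap with the midgut. The sum thus fell as that of the ribosomal protein genes did. Of 23 initiation factors tested, only EIF4E, the cap-binding factor, passed with Hoxd13, where it was 0.70 higher (log2, SE 0.19, adjusted p = 0.0453), and none passed in the hindgut. Of 8 ribosome biogenesis genes tested, 0 passed in either comparison, with medians of -0.23 with Hoxd13 and -0.17 in the hindgut (log2). The 9 mitochondrial ribosomal protein genes tested of 68 had medians of 0.34 with Hoxd13 and 0.00 in the hindgut, and 0 passed. As shares of counts without mitochondrially encoded genes, the biogenesis genes summed to 0.307 to 0.313% in the midgut and 0.266 to 0.281% in the Hoxd13 midgut. The sums of the initiation factors overlapped (0.562 to 0.652% and 0.543 to 0.615%). Those of the mitochondrial ribosomal protein genes were higher with Hoxd13 (0.132 to 0.146% and 0.157 to 0.162%).

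The muscle layers were sampled far less deeply. In the longitudinal muscle, 10 members were among 144 genes tested. Against the midgut, 0 of 10 passed in the hindgut, beside 1.39% of all genes, and 0 of 10 with Hoxd13, beside 11.8%. At an unadjusted p under 0.05, 0 members passed in the hindgut, beside 10.4% of all genes, and 3, all lower, with Hoxd13, beside 23.6%. The medians of the members were -0.37 and -0.34 (log2), beside 0.04 and 0.11 for all genes. RPS3A held 4014, 4937.5, 3318 and 3154 CPM in the midgut and 1725, 2226, 2738 and 2472 CPM in the Hoxd13 midgut, without overlap. Its change was -0.74 (log2, SE 0.27, adjusted p = 0.0686), and it passed by RLE factors, by DESeq2, without mitochondrially encoded genes and in 3 of 12 fits that left out 1 sample, those without hindgut replicate 1, 2 or 3.

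In the circumferential muscle, 3 of 21 members were lower with Hoxd13 and 0 higher, beside 4.87% of 349 genes called, 2.29% lower and 2.58% higher. RPL17 had 779, 804, 719 and 875 CPM in the midgut and 233, 258, 201 and 323 CPM in the Hoxd13 midgut, resting on 15 to 25 and 7 to 11 counts a sample. The groups did not overlap, and the change was -1.65 (log2, SE 0.42, adjusted p = 0.0301). RPS6 had 467, 900.0, 514 and 533 CPM in the midgut but 204, 148, 134 and 323 CPM with Hoxd13, a change of -1.60 (log2, SE 0.42, adjusted p = 0.0301). The low-count filter of this layer stood at 249 CPM of the full totals, which RPL17 and RPS6 reached in the 4 midgut samples, in hindgut replicate 1 and in no Hoxd13 midgut sample. Having entered through the group where they are high, they had to differ, and their p-values are no support. For RPS10 the levels were 1091, 932, 1129.7 and 1446 CPM in the midgut. Its Hoxd13 midgut levels were 698, 554, 736 and 586 CPM, all lower, RPS10 was over the filter in all 12 samples, and it fell by 0.82 (log2, SE 0.21, adjusted p = 0.0301). No member passed without Hoxd13 midgut replicate 1, 2 or 3 or midgut replicate 1, 3 or 4, RPS10 alone without midgut replicate 2, RPS6 alone without Hoxd13 midgut replicate 4, and RPL17 and RPS6 without hindgut replicate 4.

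In the hindgut circumferential muscle, 0 of 21 members passed, beside 0% of all genes. At an unadjusted p under 0.05, 4 members and 37 of 349 genes (10.6%) passed, all 4 members lower, and DESeq2 called 0 members and 2 genes. RPL17 was at -1.08 (log2, SE 0.39, adjusted p = 0.252), with 694, 73.3, 215 and 187 CPM in hindgut replicates 1 to 4, of which replicate 1 alone was near the midgut. Without hindgut replicate 1, RPL13, RPL17, RPS3A and RPS6 were called lower, with RPL17 at -2.35, beside 10.7% of 365 genes called. Of these, RPS3A was over the filter in every sample, and the other members in no hindgut sample but replicate 1. The Z-linked members' share of ribosomal protein counts in this layer was 6.79 to 8.27% in the midgut, 3.16 to 4.44% in the Hoxd13 midgut, 6.97% in hindgut replicate 1 and 1.64 to 4.29% in hindgut replicates 2 to 4.

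A fit of all 36 regions compared each effect in the mesenchyme with its average over the muscle layers, for 35 members. None passed for the hindgut, beside 0.489% of 614 genes, nor for Hoxd13, beside 0%. At an unadjusted p under 0.05, 0 members and 19 genes (3.09%) passed for the hindgut, and 1 member (RPS6) and 49 genes (7.98%) for Hoxd13. DESeq2 called 0 members in both. The largest of these differences by p was that of RPS6 for Hoxd13, 0.73 (log2, SE 0.32, adjusted p = 0.557), so no difference between layers was detectable at this depth.

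Between layers of the same samples, ribosomal protein genes were lower in muscle. The fit of 36 regions took the sample as a block. In the circumferential muscle, 23 of 35 members were lower than in the mesenchyme and 0 higher, beside 40.1% of all genes called, 19.1% lower and 21% higher. All 35 members were below 0, with a median of -0.41 (log2), beside 0.01 for all 614 genes. The 23 comprised 12 of 20 large-subunit and 11 of 15 small-subunit members. Of the 35 members, 12 were over the low-count filter in fewer than 4 circumferential muscle regions and entered the test through other regions, so a lower value there was partly fixed. Among the other 23 members, 19 were lower, with a median of -0.44 (log2).

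RPL8 had a lowest, median and highest level of 782, 1058 and 1658 CPM (scale of the 36-region fit) in 12 mesenchyme regions and of 476, 754 and 1083 CPM in the circumferential muscle. It was lower than in the sample's own mesenchyme in 11 of 12 samples and fell by 0.62 (log2, SE 0.11, adjusted p = 6.67e-07). RPL4, a large-subunit protein that lines the peptide tunnel, fell by 0.48 (log2, SE 0.09, adjusted p = 2.25e-06), from a median of 1663 to 1132 CPM and in 12 of 12 samples. RPS27, a zinc-binding small-subunit protein among the 12 that entered through other regions, was at -0.81 (log2, SE 0.16, adjusted p = 3.20e-05) and lower in 11 of 12 samples.

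The acidic stalk protein RPLP0 fell by 0.53, RPS10 by 0.44, RPS13 by 0.62, RPS20 by 0.56, RPL6 by 0.48, RPL5 by 0.37 and RPL7A by 0.43 in the circumferential muscle (log2). RPS4Y1, the symbol the table gives to a gene that the reference places on chromosome 4, was at -0.62 and also entered through other regions. RPS3A passed with a smaller change of -0.20 (SE 0.07, adjusted p = 0.0192), and the Z-linked RPL17 and RPS6 with -0.46 and -0.44 (log2). The 5 members nearest to 0 were RPL27A, RPS3, RPS12, RPLP1 and RPL39L, and none of them passed.

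In the longitudinal muscle, 11 of 35 members were lower than in the mesenchyme and 0 higher, beside 20.8% of all genes called, 10.9% lower and 9.93% higher. The median was -0.25 (log2), beside 0.00 for all genes, and 32 of 35 were below 0. RPL5, which carries a small ribosomal RNA into the large subunit, fell furthest, by 0.89 (log2, SE 0.14, adjusted p = 6.70e-07). It had a median of 1159 CPM in the mesenchyme and 523 CPM in the longitudinal muscle, and was lower in 12 of 12 samples. RPL4 fell by 0.50 (adjusted p = 0.000111) and RPL8 by 0.60 (adjusted p = 0.000238), in 12 and 11 of 12 samples. RPS20, RPL23A, RPL17, RPL7A, RPS3A, RPS27, RPLP0 and RPL13 also fell, by 0.24 to 0.62. Without hindgut replicate 1, RPL23A (adjusted p = 0.111), RPL17 (adjusted p = 0.128) and RPL13 (adjusted p = 0.115) lost their calls, and 9 of 32 members passed beside 13.3% of 549 genes. In the 12 fits that left out 1 sample, RPL13 passed in 4, RPLP0 in 6, RPS27 in 7, RPL17 and RPS3A in 10, RPL23A in 11 and the others in 12.

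Of these layers' members, RPL5 alone differed between the muscles, beside 5.86% of all genes called and 4.72% called lower. It was 0.51 lower in the longitudinal than in the circumferential muscle (log2, SE 0.16, adjusted p = 0.0426), and the call was lost without Hoxd13 midgut replicate 1 or 3 or midgut replicate 2 or 4, by RLE factors (another scaling), by DESeq2 and on full totals without scaling factors. The median of the 35 members was 0.16 (log2), beside -0.02 for all genes.

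**Figure D5:**
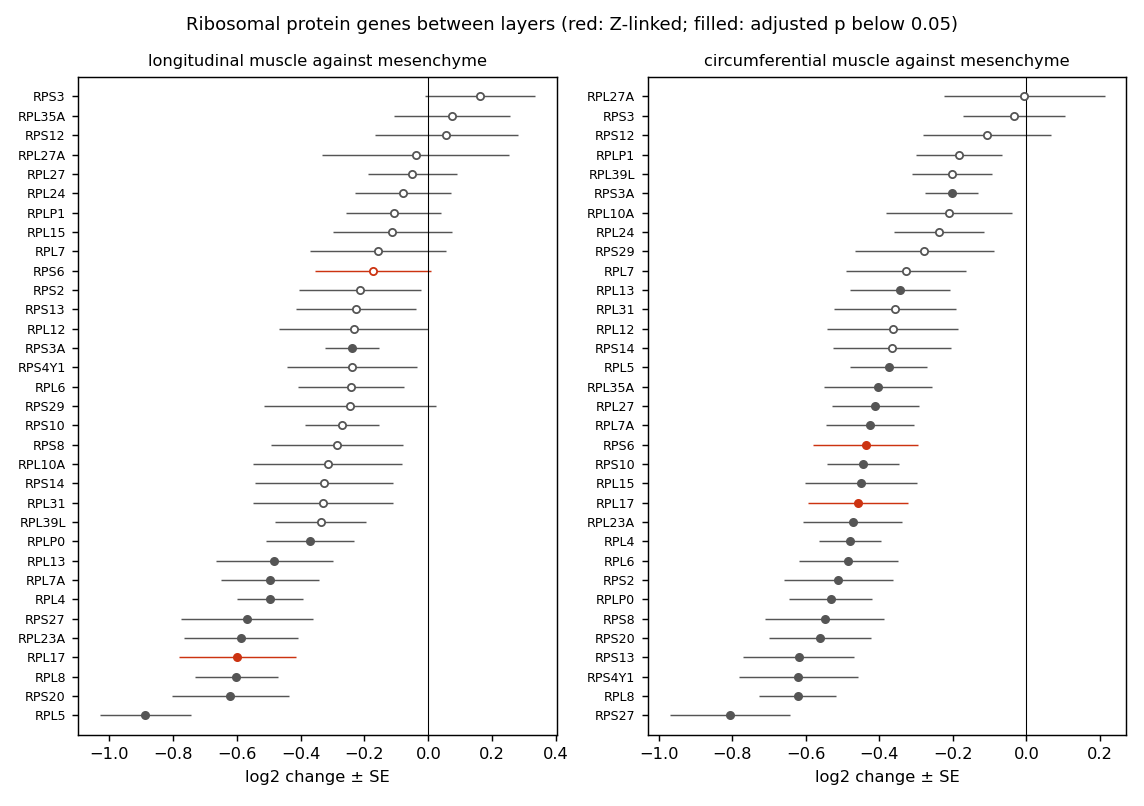
Log2 change ± SE of 33 of the 35 ribosomal protein genes tested between layers, longitudinal muscle against mesenchyme (left) and circumferential muscle against mesenchyme (right), averaged over the groups, with each panel ordered by its own values and both sharing the mesenchyme regions. Filled points passed the adjusted threshold of 0.05, all 33 points lie below 0 on the right, and RPL5 is lowest on the left and RPS27 on the right. On the right, 12 members, RPS27 among them, entered the test through other regions, so a lower value was partly fixed. On the left this holds for 5 members, of which 0 were called.

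Among the TOP-message genes outside the family, EEF1A1, the elongation factor that delivers aminoacyl-tRNA, was 0.28 lower in the circumferential muscle (SE 0.06) and 0.29 lower in the longitudinal muscle (log2, SE 0.07). In the circumferential muscle, 6 of 10 such genes were lower (EEF1A1, EEF1D, EEF2, GNB2L1, PABPC1 and TPT1) and 2 higher (NACA and VIM). In the longitudinal muscle, 2 were lower (EEF1A1 and GNB2L1) and VIM was higher. Of 13 mitochondrially encoded genes, 10 were higher in the circumferential and 4 in the longitudinal muscle. Epithelial markers were lower in both muscle layers (4 of 4 tested), and smooth muscle markers were higher in the circumferential muscle (7 of 7). Only 1 of these 7 was called higher in the longitudinal muscle. The part of these genes and markers in the lower ribosomal protein levels was not tested.

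Members with few counts stayed outside the tests. RPS19BP1, RPS27L, RPL22, RPL22L1, RPL7L1 and RPS28 did not pass the filter in the mesenchyme. RPS19BP1 had 14 counts over the 12 mesenchyme samples, of which 5 were at 0. RPS27L, a paralog of RPS27, had 59 counts beside 1394 of RPS27. RPL22L1 had 59 beside 98 of its paralog RPL22, and RPL7L1, a protein of large-subunit assembly, had 103 beside 1111 of RPL7. RPS28 had 118 counts. These counts are not corrected for transcript length, and reads of near-identical copies may be split between genes.

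The paralogs with more counts did not pass either. RPS27 was at -0.41 with Hoxd13 (adjusted p = 0.221) and RPL7 at -0.37 (adjusted p = 0.182), and RPL26L1 was at 0.31 (adjusted p = 0.424) in the mesenchyme (log2). The members with the most counts in the midgut mesenchyme were RPS3A (3967), RPL4 (2225), RPS10 (1645), RPL8 (1603) and RPL5 (1378). All of them but RPL5 and RPL4 were called with Hoxd13. RPL5 was at 974 to 1100 CPM in the midgut and 831 to 992 CPM in the Hoxd13 midgut, which overlap, and RPL4 at 1472 to 1800 and 1276 to 1389.5 CPM, which do not. RPL4 changed by -0.30 (log2, adjusted p = 0.197).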

How the data were processed

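Light-seq gene counts for 36 regions (12 samples, each with 3 tissue layers) were taken as deposited: per the file headers, the authors' table holds 1 column of raw counts per sample and layer for 17138 genes. The submitters' processing notes name the GRCg6a genome, UMI-tools, STAR, featureCounts, MultiQC and DESeq2. They give no roles, and the sources used here do not say whether reads or unique molecules were counted. CPM are counts scaled to the library sizes of a fit. Either way, counting error sets only part of the error, and floors of 3 counts cover counting error only. No replicate pair matched within sampling noise (chi-square test, 54 pairs, largest p = 0.0011).

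Groups within a layer were compared with edgeR 4.0.16 in R 4.3.3 (quasi-likelihood test, TMM factors, filterByExpr with a minimum count of 10 and total of 15, library sizes taken after the filter, two-sided). Each fit held all 3 groups, and p-values were adjusted by Benjamini-Hochberg over all genes tested, with a threshold of 0.05. Layers were compared in 1 fit of 36 regions with the sample as a block and layer effects within each group, averaged over groups. A negative log2 change means lower in the group named first. The low-count filter passed 64, 10 and 21 of the 70 members in the mesenchyme, longitudinal and circumferential muscle and 35 in the fit of 36 regions. A member that passed only through the group where it is high had to differ. The fits were tested on simulated data. Results of some members are not reported here, and the plots of changes leave them out.

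Chromosomes came from a RefSeq gene table of the GRCg7b assembly, matched by symbol (11099 symbols) and used for chromosome membership only. Named were members past the threshold (at most 12 per comparison, by p), the Z-linked members, RPS3A, paralog pairs, and the 5 members with the most and the 5 with the fewest counts in the midgut mesenchyme. RPL5 between muscle layers, RPL27 and the members nearest to 0 were named after their values were seen. Members and gene lists were chosen with earlier results of these data known. Alternatives used RLE factors, no filter, DESeq2 1.42.0, no mitochondrially encoded genes, a replicate block, only the groups compared and each sample left out. Those with full column totals, with and without TMM factors, and the other sums of ribosomal protein counts were chosen after seeing the data.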

Additional observations from a re-analysis of the deposited data

Results flagged for a closer look

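In 51 sets of 4 samples, the highest or lowest sample was tested for a gap to its nearest neighbour that is large for the range of the set. Chance gives such a gap in about 1 in 20 sets, and 5 were found. Hindgut replicate 1 was far above the other hindgut mesenchyme samples for RPS3A (2564 CPM, the others 1841 to 1923 CPM) and for RPS6 (527 CPM, the others 226 to 272 CPM). RPS29 in Hoxd13 midgut replicate 3 was the highest of its group in the mesenchyme at 163 CPM, with the others at 117 to 124 CPM. RPL37 in Hoxd13 midgut replicate 1 was the lowest at 86.1 CPM, with the others at 127 to 130.3 CPM. In the circumferential muscle, large-subunit members made up 63.1% of the ribosomal protein counts in Hoxd13 midgut replicate 2, the highest of its group.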

How the results depend on the processing

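Counts of members called moved by more than 1.5 times in these cases, and the cause was not tested. The shares of all genes called in these fits are not given in this section. The counts therefore show the dependence on settings only and are no result about the members. For the hindgut against the midgut in the mesenchyme, 1 member was called without mitochondrially encoded genes, and 0 on full totals without scaling factors or in a fit of only the groups compared. For the Hoxd13 midgut against the midgut, 12 were called in a fit of only those groups. With a replicate block the count was 3 (RPL17, RPS6 and RPS10). Between the hindgut and the Hoxd13 midgut, 2 were called with no filter. In the longitudinal muscle with Hoxd13, 1 was called with RLE factors, DESeq2 or no mitochondrially encoded genes, 2 in a fit of only those groups and 3 on full totals with or without scaling factors. In the circumferential muscle with Hoxd13, 0 were called with no filter. With no filter, 60 members were called in the longitudinal and 45 in the circumferential muscle against the mesenchyme. Between the muscles, 0 were called with RLE factors, DESeq2 or no scaling factors.

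Leaving out 1 sample at a time gave 0 to 15 members for the hindgut and 2 to 10 for Hoxd13 against the midgut in the mesenchyme, and 0 to 5 between them. In the longitudinal muscle it gave 0 to 1 and 0 to 3, and in the circumferential muscle 0 to 4 and 0 to 4, in the same order. Between layers it gave 8 to 11 (longitudinal muscle), 19 to 27 (circumferential muscle) and 0 to 1 (between the muscles). These ranges too stand without the shares of all genes called, which are given above for some of the fits only.

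Directions reversed only for differences that had not passed (log2 values). Between the hindgut and the Hoxd13 midgut, RPS3A was at 0.16 without scaling factors and ranged from -0.162 to 0.0212 with 1 sample left out. There RPL37 ranged from -0.0384 to 0.228, RPS23 from -0.65 to 0.692 and RPS6 from -0.20 to 0.416, each negative without hindgut replicate 1. RPL37 was also negative without Hoxd13 midgut replicate 1, and RPS3A positive without hindgut replicate 2 or 4. Between the muscles, RPS6 was at -0.0935 with no filter, RPS3A at 0.0322 without scaling factors, and RPL17 ranged from -0.296 to 0.22, positive without hindgut replicate 1.

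The labels do not say that replicate numbers pair the samples. Same-numbered mesenchyme samples of different groups correlated at -0.27 to 0.09 in their deviations from the group means, and 0 of 12 pairs exceeded 0.1. In the longitudinal muscle the range was -0.25 to 0.23, and 6 of 12 pairs exceeded 0.1. The circumferential muscle had -0.23 to 0.21, and 4 of 12 pairs exceeded 0.1. The main group tests took no account of replicate numbers in any layer, so a pairing in the muscle layers is not excluded. Members with few counts limit the muscle layers, where 41 to 62 and 49 to 67 of 70 members had a count in a sample.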
